A study of Homo sapiens with 4 samples.

Results

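A set of 10 genes that write, read or recruit histone H3 lysine 9 (H3K9) methylation was followed in the human gastric cancer line NUGC3. They were TRIM28, SETDB1, ATF7IP, CBX1, CBX3, CBX5, MPHOSPH8, MORC2, EHMT2 and SUV39H1, chosen by symbol among the 53777 rows of the expression table that carry an Ensembl gene identifier. Each of the 10 symbols had 1 such row. RNA was sequenced from 2 scramble control libraries and 2 libraries with a short hairpin against NIPBL, whose protein loads the cohesin ring onto chromosomes. The knockdown libraries carried different hairpins, hairpin 1 and hairpin 7, with 1 library each, so a difference between hairpins has no replicate. All 4 labels hold the letters DOX, which they do not explain, and scramble 2 has the label of scramble 1 plus a suffix that may mark a repeat. No label speaks of separate cultures, so the p-values reflect only how far these 4 libraries scatter, possibly for technical reasons. In such bulk RNA, fewer cells with a transcript and less of it per cell cannot be told apart. The series concerns MYC, thymidylate synthase and antifolate drugs. The comparison here asks how transcripts of the H3K9 silencing machinery stood when NIPBL was lowered.

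H3K9 methylation marks heterochromatin, the compact and mostly silent part of the genome. Zinc finger proteins with a KRAB domain bind particular DNA sequences and bring in TRIM28, which in turn recruits the methyltransferase SETDB1 and the reader proteins of the HP1 family. ATF7IP stabilizes SETDB1, and the HUSH complex, which contains MPHOSPH8 and works with the ATPase MORC2, spreads the mark over transposons and other repeats. SUV39H1 keeps the mark at centromeres, and EHMT2, also called G9a, places the lighter mono- and dimethyl marks in gene-rich chromatin.

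Values are FPKM, a read abundance per transcript length and library size, given by the authors. Read depth is unknown, because FPKM does not keep it; FPKM over all rows summed to 739334.9 and 730732.3 in the scramble libraries, 749445.7 with hairpin 1 and 682076.5 with hairpin 7. NIPBL, which checks the labels, stood at 23.92 and 23.11 FPKM in the scramble libraries, 7.27 with hairpin 1 and 9.17 with hairpin 7, with a log2 change of -1.42 ± 0.14 (SE, with adjusted p = 0.0218 in limma). All 6 epithelial markers had a mean of at least 1 FPKM, and of 8 gastric markers only AGR2 did. The summed FPKM of the epithelial list was 5124.78 and 5181.38 in scramble and 4213.85 and 5143.97 with hairpins 1 and 7. Its members went both ways. Both hairpins lay below both scramble libraries for KRT18, KRT8 and EPCAM, and above them for KRT19, CLDN4 and CDH1. PTPRC, which marks immune cells, was listed at 0 in all 4 libraries, and so were COL1A2 and COL3A1 of 5 fibroblast markers. COL1A1, another of them, stood at 6.57 and 5.75 FPKM in scramble and 9.39 and 7.34 FPKM with hairpins 1 and 7 and made up nearly all of that list's sum of 6.57 and 5.76 against 9.45 and 7.37. The summed FPKM of the gastric list was 2.52 and 2.29 in scramble and 13.01 and 11.92 with hairpins 1 and 7, and that of the immune list 12.41 and 17.25 against 31.63 and 37.75. Most of the gastric sum and most of the immune sum came from 1 gene each. AGR2 stood at 2.31 and 1.47 FPKM in scramble and 10.14 and 10.69 FPKM with hairpins 1 and 7, and CD68, which was on the immune list, at 12.41 and 17.08 against 31.48 and 37.71 FPKM. The part of any of them in the results below was not tested.

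In the scramble libraries CBX3 and TRIM28 were the most abundant of the 10 genes on the FPKM scale, at 207.8 ± 4.15 and 177.9 ± 1.02 FPKM (SD, n = 2 each). Of the tested protein-coding genes 96.6% had a lower scramble mean than CBX3, and 96.0% a lower one than TRIM28. CBX1 followed at 57.8 ± 3.49, EHMT2 at 40.3 ± 0.467, SETDB1 at 29.1 ± 0.403 and CBX5 at 20.8 ± 0.488 FPKM (SD, n = 2 each). ATF7IP and SUV39H1 did not differ beyond their spread, with 17.37 and 17.33 FPKM against 17.40 and 17.25. MPHOSPH8, at 16.69 and 14.85 FPKM, and MORC2, at 11.60 and 10.78 FPKM, were lowest. In the knockdown libraries the order of the 5 most abundant genes was the same, while SUV39H1 lay below MPHOSPH8, CBX5 and ATF7IP with both hairpins, and with hairpin 1 also below MORC2.

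**Figure D1:**
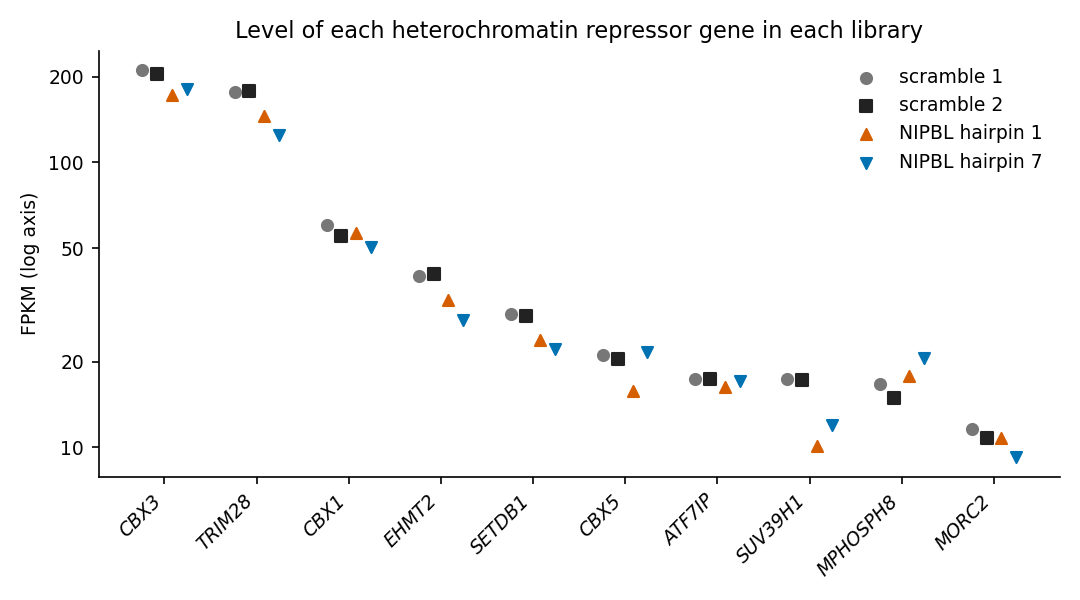
FPKM of each of the 10 genes on a log axis, 1 point per library, ordered by scramble mean. CBX3 and TRIM28 lie between 124.26 and 210.71 FPKM in every library, and both hairpin points of TRIM28, SETDB1, EHMT2, SUV39H1, CBX3 and ATF7IP lie below both scramble points.

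None of the 10 genes passed the test of knockdown against scramble (limma on log2(FPKM + 1), Benjamini-Hochberg adjusted p under 0.05 over 12834 genes), where 2.56% of all genes tested passed, 1.11% lower and 1.45% higher. With an unadjusted p under 0.05 there were 4 lower genes, SUV39H1, TRIM28, EHMT2 and SETDB1, and 0 higher ones. Over all genes tested 12.8% were lower and 13.6% higher at that level. The log2 change lay below 0 for 9 of the 10 genes, with a median of -0.20, against 51.6% of all genes tested and a median of -0.01. Both hairpins lay below both scramble libraries for 6 genes, where 30.8% of all genes tested did, and above them for 1 gene, MPHOSPH8, where 29.5% did. These counts describe a list chosen with earlier results of these data known.

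TRIM28, the corepressor that KRAB zinc finger proteins recruit, stood at 177.20 and 178.64 FPKM in scramble, 145.24 with hairpin 1 and 124.26 with hairpin 7. The groups did not overlap, and hairpin 7 had the lowest value. The knockdown mean of 134.8 ± 14.8 FPKM (SD, n = 2) was 75.7% of scramble, and the log2 change was -0.40 ± 0.11 (SE), with a 95% interval of -0.70 to -0.11 (limma, adjusted p = 0.117). The interval lies below 0, while the adjusted p missed the threshold.

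SETDB1, the methyltransferase that TRIM28 brings to chromatin, stood at 29.36 and 28.79 FPKM in scramble, 23.89 with hairpin 1 and 22.11 with hairpin 7. Its groups did not overlap either, and the hairpins stood closer to each other than those of TRIM28. The mean was 79.1% of scramble, and the log2 change was -0.33 ± 0.10 (SE), with a 95% interval of -0.58 to -0.08 (limma, adjusted p = 0.129). The ratio of TRIM28 to SETDB1 FPKM was 6.04 and 6.21 in scramble, 6.08 with hairpin 1 and 5.62 with hairpin 7.

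ATF7IP, the partner that protects SETDB1 from degradation, was at 17.37 and 17.33 FPKM in scramble and 16.33 and 17.06 with hairpins 1 and 7. The hairpins were lower by a small margin, and the groups did not overlap, since the scramble libraries differed by only 0.04 FPKM. The log2 change was -0.05 ± 0.10 (SE), with a 95% interval of -0.30 to 0.20 (limma, adjusted p = 0.762). SETDB1 stood at 1.69 and 1.66 times the FPKM of ATF7IP in scramble, 1.46 times with hairpin 1 and 1.30 times with hairpin 7.

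EHMT2 was at 39.94 and 40.60 FPKM in scramble, 32.93 with hairpin 1 and 27.91 with hairpin 7. In each library its position relative to the scramble mean was close to that of TRIM28, at 81.8% and 69.3% for the 2 hairpins against 81.6% and 69.8%. The log2 change was -0.40 ± 0.12 (SE), with a 95% interval of -0.70 to -0.10 (limma, adjusted p = 0.123). Its dimer partner EHMT1, or GLP, which is required for EHMT2 function in cells, had a log2 change of -0.22 ± 0.13 (SE, with adjusted p = 0.317 in limma), so EHMT2 stood at 0.731 and 0.762 times EHMT1 in scramble and 0.647 and 0.669 times with hairpins 1 and 7.

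SUV39H1, the enzyme of pericentromeric H3K9 trimethylation, had the largest difference of the 10 genes. It stood at 17.40 and 17.25 FPKM in scramble, 10.14 with hairpin 1 and 11.99 with hairpin 7. The groups were well apart, and unlike TRIM28 and EHMT2 the lowest value came with hairpin 1. The mean was 63.9% of scramble, and the log2 change was -0.61 ± 0.12 (SE), with a 95% interval of -0.92 to -0.29 (limma, adjusted p = 0.0739). Of all genes tested, 5.8% had a smaller p. Its paralog SUV39H2 stood at 14.44 and 17.54 FPKM in scramble and 12.52 and 14.13 FPKM with hairpins 1 and 7 (log2 change -0.24 ± 0.14, SE, with adjusted p = 0.324 in limma). SUV39H1 was thus at 1.21 and 0.983 times SUV39H2 in scramble, and at 0.810 and 0.849 times with hairpins 1 and 7.

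**Figure D2:**
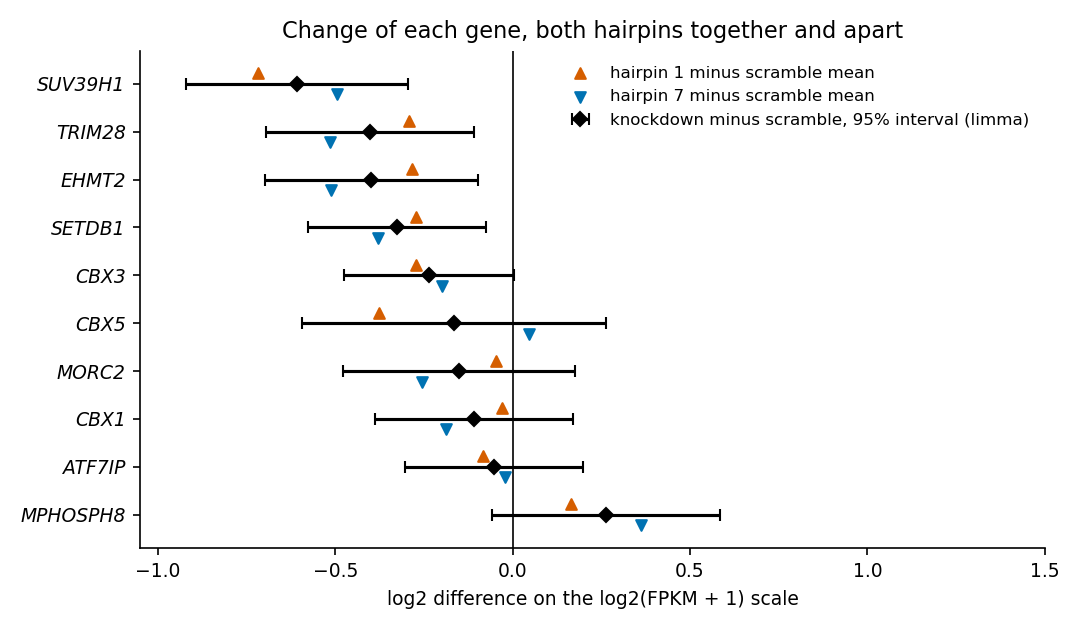
Log2 difference from scramble for each gene on the log2(FPKM + 1) scale: diamonds give knockdown minus scramble with the 95% interval of limma, triangles each hairpin minus the scramble mean. The intervals of SUV39H1, TRIM28, EHMT2 and SETDB1 lie below 0, and CBX5 is the one gene whose hairpins lie on opposite sides of 0.

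The 6 methyltransferase genes SETDB1, SETDB2, EHMT1, EHMT2, SUV39H1 and SUV39H2 summed to 159.36 and 160.77 FPKM in scramble, 134.44 with hairpin 1 and 122.36 with hairpin 7. EHMT1 and EHMT2 held the most, with a mean of 33.7% and 25.2% of the sum in scramble. SETDB1 held 18.42% and 17.91% in scramble and 17.77% and 18.07% with hairpins 1 and 7, so its share was nearly level. The share of SUV39H1 was 10.92% and 10.73% in scramble, 7.54% with hairpin 1 and 9.80% with hairpin 7.

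The 3 HP1 proteins bind methylated H3K9 through their chromodomains: CBX5 (HP1 alpha) and CBX1 (HP1 beta) sit mainly in heterochromatin, and CBX3 (HP1 gamma) is also found in active genes. CBX3 stood at 210.71 and 204.84 FPKM in scramble and 171.93 and 180.78 FPKM with hairpins 1 and 7. The groups did not overlap, with a knockdown mean at 84.9% of scramble and a log2 change of -0.24 ± 0.09 (SE, with adjusted p = 0.195 in limma). CBX1 was at 60.25 and 55.31 FPKM in scramble and 56.52 and 50.56 FPKM with hairpins 1 and 7, so its groups overlapped (log2 change -0.11 ± 0.11, SE, with adjusted p = 0.554 in limma).

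CBX5 was the one member whose hairpins parted. It was at 21.15 and 20.46 FPKM in scramble, 15.78 with hairpin 1 and 21.52 with hairpin 7, which put hairpin 1 below and hairpin 7 above both scramble libraries. The log2 change over both was -0.17 ± 0.17 (SE), with a 95% interval of -0.59 to 0.26 (limma, adjusted p = 0.559). The difference between hairpins was 0.42 on the log2(FPKM + 1) scale, against -0.05 between the scramble libraries, and could not be tested with 1 library each. CBX3 made up 72.13% and 73.00% of the HP1 family's FPKM in scramble and 70.40% and 71.49% with hairpins 1 and 7. The CBX5 share was 7.24% and 7.29% in scramble, 6.46% with hairpin 1 and 8.51% with hairpin 7. Retrotransposed copies took little of this signal: 15 pseudogenes named after CBX1, CBX3 or CBX5 had rows, 9 of them at 0 in all libraries, and the highest value was 0.59 FPKM.

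**Figure D3:**
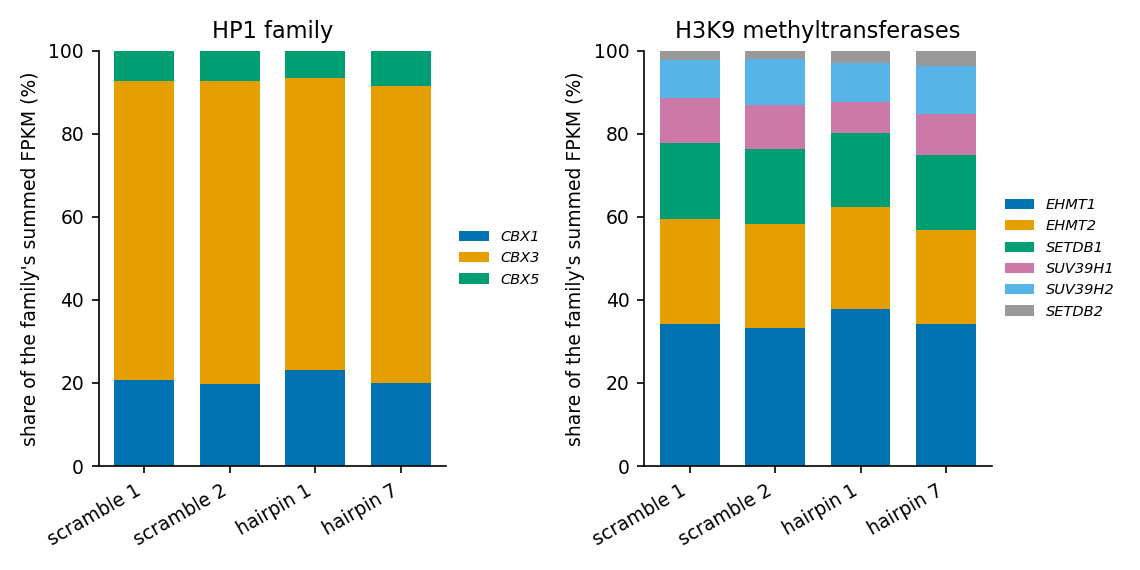
Share of summed FPKM per library within the HP1 family (left, 3 genes) and within 6 H3K9 methyltransferases (right), stacked to 100%. CBX3 holds between 70.40% and 73.00% of the HP1 family in every library, and the SUV39H1 share is smaller with both hairpins than in both scramble libraries.

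MPHOSPH8, the HUSH subunit that binds methylated H3K9, was the one gene with a positive log2 change. It stood at 16.69 and 14.85 FPKM in scramble, 17.76 with hairpin 1 and 20.52 with hairpin 7. The groups did not overlap, but the scramble libraries were 0.16 apart on the log2 scale, the widest of the 10 genes, and the log2 change was 0.26 ± 0.12 (SE, 95% interval -0.06 to 0.59, limma, adjusted p = 0.256). MORC2 was at 11.60 and 10.78 FPKM in scramble and 10.80 and 9.21 FPKM with hairpins 1 and 7. Its groups overlapped, with a log2 change of -0.15 ± 0.13 (SE, with adjusted p = 0.483 in limma). The other HUSH subunits, TASOR and PPHLN1, stood at 34.25 and 31.66 FPKM in scramble 1, and their log2 changes of 0.02 ± 0.12 and -0.08 ± 0.10 (SE, with adjusted p = 0.939 and 0.640 in limma) were close to 0. None of these HUSH genes passed the test.

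In FPKM as given, hairpin 7 gave the lower value for TRIM28, SETDB1, EHMT2, CBX1 and MORC2, and hairpin 1 for SUV39H1, CBX3, CBX5, ATF7IP and MPHOSPH8. Rows with an Ensembl identifier summed to 685329.9 FPKM with hairpin 1 and 618832.8 with hairpin 7. As a share of the methyltransferase sum, SETDB1 had the opposite order, 17.77% with hairpin 1 and 18.07% with hairpin 7. The shares of EHMT2 and SUV39H1 kept their order. These orders and the gaps below were not tested with the hairpin libraries scaled to the same sum. For all 10 genes the hairpins stood farther apart on the log2 scale than the scramble libraries did, with absolute differences between 0.06 for ATF7IP and 0.42 for CBX5. Between scramble libraries the widest was 0.16. Over all genes tested the SD of the log2 difference was 0.45 between hairpins and 0.28 between scramble libraries, so a wider gap between hairpins is shared with other genes.

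By distance between the 4 library values on the log2(FPKM + 1) scale, each centred on its mean, the 3 protein-coding genes most like TRIM28 were ZNF565, ATP2A2 and EHMT2, at distances of 0.0086, 0.0088 and 0.0108. Those most like SETDB1 were ZNF211, LRRC8B and ADRBK1, at 0.023, 0.0237 and 0.0243. With 4 libraries, such likeness among 11514 genes is a description of these values only.

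Some members share ground with a neighbour gene in GENCODE 29, and the strand setting of the libraries is not given, so reads where they overlap cannot be told apart. CBX3 (chromosome 7) overlaps HNRNPA2B1 on the opposite strand, an RNA-binding protein gene at 1133.31 and 1091.52 FPKM in scramble and 931.56 and 760.02 FPKM with hairpins 1 and 7 (log2 change -0.40 ± 0.14, SE, with adjusted p = 0.167 in limma). SETDB1 (chromosome 1) overlaps CERS2, a ceramide synthase gene on the opposite strand. CERS2 stood at 87.41 and 89.76 FPKM in scramble and 98.53 and 100.84 FPKM with hairpins 1 and 7, above SETDB1 in every library and with the opposite sign (log2 change 0.17 ± 0.09, SE, with adjusted p = 0.290 in limma). HNRNPA1, which starts divergently from CBX5 (chromosome 12), was at 659.46 and 650.41 FPKM in scramble and 568.50 and 465.58 FPKM with hairpins 1 and 7, so hairpin 7 was its lowest library while it was the highest for CBX5. Beside TRIM28 on chromosome 19, CHMP2A, a membrane-remodelling gene, had the opposite sign to TRIM28, with a log2 change of 0.40 ± 0.10 (SE, with adjusted p = 0.104 in limma). The antisense genes MORC2-AS1 and EHMT2-AS1 were at 0.24 FPKM or less in every library.

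The series concerns MYC, which binds with MAX to the E-box CACGTG, so the 250 bases upstream of each RefSeq start (GRCh38.p14) were read for it on both strands. Of the members, 9 had such windows, 18 in all, and TRIM28 had no entry. The E-box was found in 4 of the 18, upstream of SETDB1, EHMT2 and CBX5, and in 6.34% of all 35116 windows of that length. The CCAAT letters of the NF-Y box, read the same way, were found in 11 of the 18 windows and in 32.0% of all windows. The 11 windows belonged to 5 members, ATF7IP, CBX5, MORC2, MPHOSPH8 and SUV39H1. Most of them were windows of ATF7IP and CBX5, which had several each. A gene with many starts counts many times and windows of 1 gene can overlap, so they are not independent. TTTGGCGC, as bound by E2F, was found in 0 of the 18 and in 0.55% of all windows. For each of the 3 genes a window with an E-box is shown, because SETDB1 and EHMT2 were lower with both hairpins and CBX5 was not. SETDB1 had 2 overlapping windows that hold the same E-box, and the upstream one is shown. Capitals mark CACGTG and, in CBX5, the single CCAAT match on the reverse strand. The SETDB1 window is chr1:150926013-150926262 on the plus strand, the EHMT2 window chr6:31897699-31897948 on the minus strand and the CBX5 window chr12:54280123-54280372 on the minus strand, each written 5′ to 3′ towards the start.
SETDB1: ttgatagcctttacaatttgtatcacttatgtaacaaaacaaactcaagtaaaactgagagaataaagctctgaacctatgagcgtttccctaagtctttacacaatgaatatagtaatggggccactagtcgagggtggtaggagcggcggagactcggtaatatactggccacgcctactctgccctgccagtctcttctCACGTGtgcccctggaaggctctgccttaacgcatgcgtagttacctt
EHMT2: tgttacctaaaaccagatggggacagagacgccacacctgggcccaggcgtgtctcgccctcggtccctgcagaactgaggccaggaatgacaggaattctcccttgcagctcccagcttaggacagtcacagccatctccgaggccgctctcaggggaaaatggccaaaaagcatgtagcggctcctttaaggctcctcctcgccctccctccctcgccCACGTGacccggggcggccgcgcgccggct
CBX5: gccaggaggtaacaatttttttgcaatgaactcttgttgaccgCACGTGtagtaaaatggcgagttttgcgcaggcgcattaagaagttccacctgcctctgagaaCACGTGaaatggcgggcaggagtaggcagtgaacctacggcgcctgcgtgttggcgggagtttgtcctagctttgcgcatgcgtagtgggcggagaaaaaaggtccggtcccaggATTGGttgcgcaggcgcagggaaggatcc
The CBX5 window held 2 E-boxes and the other windows 1 each. A match of letters is not a bound site, and no binding was measured here.

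Genes that work with these repressors were read from the same fit, by lists chosen with earlier results known. Of 90 tested genes on these lists 1 passed, CDCA7, which was lower, or 1.11% against 2.56% of all genes tested, and their median log2 change was -0.09. Genes with an unadjusted p under 0.05 in limma numbered 17 lower and 8 higher, or 27.8% together, against 26.4% of all genes tested. Over all genes tested 12.8% were lower and 13.6% higher at that level. Of all genes tested 51.6% lay below 0, with a median of -0.01. The same shares apply to the counts of each list below. With the germline, imprinted and neighbour genes described elsewhere, 2 of 106 passed, both lower.

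CDCA7, which activates the remodeller HELLS at heterochromatin, fell to 14.75 and 12.60 FPKM with hairpins 1 and 7, from 34.89 and 34.24 FPKM in scramble (log2 change -1.28 ± 0.11, SE, with adjusted p = 0.0202 in limma). HELLS itself was at 26.68 and 30.08 FPKM in scramble and 18.92 and 20.44 FPKM with hairpins 1 and 7, with a log2 change of -0.51 ± 0.11 (SE, with adjusted p = 0.083 in limma). LBR, the nuclear envelope protein that binds HP1, had a log2 change of -0.39 ± 0.10 (SE, with adjusted p = 0.102 in limma). In all, 16 of 25 genes of heterochromatin assembly and H4K20 methylation lay below 0, 1 of which passed, with a median of -0.07.

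Among DNA methylation genes 10 of 11 tested lay below 0 and 0 passed (limma). With an unadjusted p under 0.05, 3 were lower and 1 higher (limma). Over all genes tested 51.6% lay below 0, and 12.8% were lower and 13.6% higher at that level. The maintenance methyltransferase DNMT1 was at 75.82 and 76.28 FPKM in scramble and 55.02 and 55.88 FPKM with hairpins 1 and 7 (log2 change -0.45 ± 0.09, SE, with adjusted p = 0.0695 in limma). Its cofactor UHRF1, which reads H3K9 methylation, had a log2 change of -0.49 ± 0.16 and the de novo enzyme DNMT3B of -0.41 ± 0.14 (SE). The UHRF1 row is labelled as a processed transcript. The list had a median of -0.14.

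Genes listed as H3K9 demethylases, a name for enzymes that take the mark off, had the highest median of the lists, 0.25. Of the 11 tested, 8 lay above 0. Among these 8, the entry RIOX1 had a row labelled as a pseudogene, with a log2 change of 0.37 ± 0.23 (SE). None of the 11 passed (limma; 4 higher and 0 lower at an unadjusted p under 0.05, against 13.6% and 12.8% of all genes tested). KDM4B stood at 3.24 and 3.18 FPKM in scramble and 5.69 and 5.97 FPKM with hairpins 1 and 7, with a log2 change of 0.70 ± 0.13 (SE, with adjusted p = 0.0671 in limma). KDM3A, which removes mono- and dimethyl marks, stood at 18.62 and 19.57 against 26.41 and 31.40 FPKM, and KDM4C at 6.23 and 5.98 against 8.28 and 9.13 FPKM (limma, adjusted p = 0.0808 and 0.108). These 3 genes were named for the smallest p of the list. Both hairpins lay above both scramble libraries for 7 of the 11, these 3 among them, and below for 2. Over all genes tested 29.5% lay above and 30.8% below.

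Of the other H3K9 methyltransferases and partners of the EHMT enzymes, 5 of 9 lay above 0 with a median of 0.01, and 0 passed (limma; 1 higher at an unadjusted p under 0.05). That 1 was MECOM, at 1.51 and 2.07 FPKM in scramble and 3.10 and 3.64 FPKM with hairpins 1 and 7. CDYL, a reader that joins EHMT2, had a log2 change of -0.26 ± 0.10 and ZNF644, a zinc finger partner of EHMT2, of 0.19 ± 0.10 (SE). Among 11 genes of HUSH, SETDB1 cofactors and SUMO genes, 7 lay below 0 with a median of -0.10, and 0 passed (limma; 1 higher at an unadjusted p under 0.05). That 1 was ATF7. SUMO3, which encodes a SUMO protein, had a log2 change of -0.17 ± 0.09 (SE).

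The NuRD deacetylase and remodelling complex, which TRIM28 also recruits, had 9 of 14 tested genes below 0, a median of -0.20 and 0 that passed (limma; 2 lower at an unadjusted p under 0.05). MBD2 had a log2 change of -0.36 ± 0.11, RBBP4 of -0.25 ± 0.09 and GATAD2B of -0.32 ± 0.12 (SE, with adjusted p between 0.139 and 0.192 in limma). PRC2, which methylates H3K27 and makes a separate kind of silent chromatin, had 8 of 9 genes below 0 and a median of -0.32, and 0 passed (limma; 5 lower at an unadjusted p under 0.05). For both complexes the shares to compare with, taken over all genes tested, were 51.6% below 0 and 12.8% lower with such a p. JARID2 was at 17.25 and 16.52 FPKM in scramble and 9.50 and 10.83 FPKM with hairpins 1 and 7 (log2 change -0.68 ± 0.11, SE, with adjusted p = 0.0571 in limma). EZH2 and EZH1, the catalytic subunits, had log2 changes of -0.35 ± 0.09 and -0.48 ± 0.15 (SE). The PRC2 median thus lay farther below 0 than that of the 10 repressor genes; the difference was not tested.

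**Figure D4:**
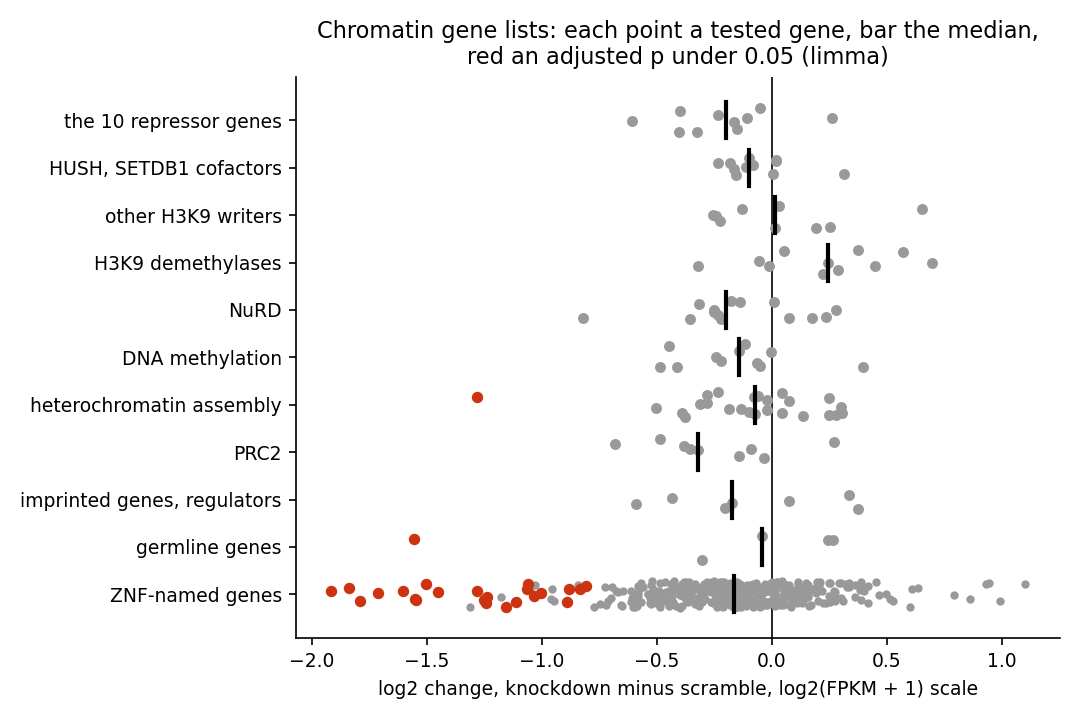
Log2 change of every tested gene on each chromatin list and of the ZNF-named genes, with the median as a bar and genes with an adjusted p under 0.05 in red. The 10 repressor genes have a median of -0.20 and no red point, the H3K9 demethylases lie mostly above 0, and all 23 red ZNF-named genes lie below 0.

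Genes on the receiving side of the pathway were read next. Zinc finger genes both encode the proteins that recruit TRIM28 and carry H3K9 methylation themselves. There were 393 tested protein-coding genes named ZNF and a number, not all of which have a KRAB domain. Of them 23 passed as lower and 0 as higher (limma). The lower ones were 5.85%, against 1.11% of all genes tested. At an unadjusted p under 0.05 in limma, 89 were lower and 11 higher, together 25.45% against 26.41% of all genes tested. Over all genes tested 12.8% were lower and 13.6% higher at that level. The median log2 change was -0.17, against -0.01 over all genes tested. ZNF283, ZNF571 and ZNF470 had the smallest p. ZNF283 fell to 10.66 and 11.74 FPKM with hairpins 1 and 7, from 43.91 and 41.35 FPKM in scramble (log2 change -1.84 ± 0.10, SE). ZNF571 fell from 33.62 and 36.50 to 9.06 and 9.80 FPKM, and ZNF470 from 23.36 and 23.43 to 7.37 and 7.33 FPKM (log2 change -1.79 ± 0.11 and -1.55 ± 0.10, SE; limma adjusted p between 0.01005 and 0.0112 for the 3 genes). Each of these 3 log2 changes was farther from 0 than that of any of the 10 repressor genes. However, the 3 were picked for the smallest p of 393 genes, while the medians were -0.17 for ZNF-named genes and -0.20 for the repressor genes. With FPKM rescaled to TPM, which gives every library the same sum, 14 ZNF-named genes were called. Members of a zinc finger cluster resemble each other, so reads may be split between them.

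Imprinted genes, whose silent copy is held by TRIM28 together with ZFP57 or ZNF445, were mostly low in this line: 18 of 24 lay under a mean of 1 FPKM, and so did ZFP57. Of the 6 tested, 0 passed (limma; 1 lower at an unadjusted p under 0.05). CDKN1C, a cell cycle inhibitor, stood at 10.21 and 9.99 FPKM in scramble and 6.70 and 6.08 FPKM with hairpins 1 and 7 (log2 change -0.59 ± 0.12, SE, with adjusted p = 0.0722 in limma). NNAT had a log2 change of -0.43 ± 0.21 and PHLDA2 of 0.37 ± 0.20 (SE). Germline genes, which H3K9 and DNA methylation keep silent in body cells, were likewise mostly low, with 20 of 25 under the filter. The highest value among those 20 was 1.64 FPKM, and 9 of them were at 0 in all libraries. Of the 5 tested, PIWIL1, an Argonaute protein of the piRNA pathway, fell to 1.34 and 1.20 FPKM with hairpins 1 and 7, from 5.79 and 5.53 FPKM in scramble (log2 change -1.55 ± 0.15, SE, with adjusted p = 0.0218 in limma). MAGEA1 was at 104.99 and 102.46 FPKM in scramble and 90.04 and 77.97 FPKM with hairpins 1 and 7, and MAGEB2 at 146.19 and 147.04 against 202.57 and 153.29 FPKM. MAGEA4, the highest of the 5 tested, was at 309.09 and 305.61 FPKM in scramble and 355.23 and 249.88 FPKM with hairpins 1 and 7. None of the 5 tested germline genes passed as higher (limma). Both hairpins lay above both scramble libraries for 2 of the 5, MAGEB2 and MAGEA3, and below them for 2, PIWIL1 and MAGEA1. Over all genes tested 29.5% lay above and 30.8% below. SYCP2, which was under the filter and not tested, was listed at 0.28 and 0.46 FPKM in scramble and 0.66 and 1.64 FPKM with hairpins 1 and 7.

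NIPBL, CDCA7, PIWIL1 and the 23 ZNF-named genes lost their calls without scramble 1 or without scramble 2, where limma called 0 genes in all (1060 and 1052 at an unadjusted p under 0.05). They also lost them with the scramble libraries averaged, where 0 genes passed in limma (975 had an unadjusted p under 0.05), and with no filter on low values, where 1 of 25230 genes was called. Without the filter the limma adjusted p was 0.118 for NIPBL, 0.107 for CDCA7, 0.122 for PIWIL1 and 0.0676 for ZNF283. With 1 hairpin left out, the lone library is taken to vary like the scramble libraries. The test then called 5 members without hairpin 1 (TRIM28, SETDB1, EHMT2, SUV39H1 and CBX3) and 6 without hairpin 7 (the same 5 and CBX5), where it called 4532 and 2915 of all genes.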

How the data were processed

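RNA-seq values of 4 NUGC3 libraries were read from 1 deposited table of 344810 rows. The authors gave FPKM per gene with 2 decimals; STAR and RSEM are named per the submitters' processing notes, without versions. The sources used here do not name the genome build, annotation, strand setting or filters. The 291033 rows without an Ensembl gene identifier, with 8.47% to 9.27% of a library's FPKM, were not used.

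The 12834 genes averaging 1 FPKM or more entered limma 3.58.1 (R 4.3.3) as log2(FPKM + 1) (eBayes with a mean trend, 2 residual and 2.87 prior degrees of freedom, two-sided, Benjamini-Hochberg). Fold changes on that scale understate low genes. No exact permutation test was made, since 2 libraries against 2 reach p = 0.333 at best. Groups came from the genotype labels, and no number in them pairs libraries. The members and gene lists were chosen with earlier results of these data known, and the motifs after the sequences were seen. List genes were matched by identifier or symbol, and all but EPOP and the endothelial marker PECAM1 had a row. Named were the 10 members, NIPBL, up to 3 tested genes of each list with the smallest p, and the 3 genes most like TRIM28 and SETDB1; other genes were chosen after their values were seen. The fit was also run on simulated data, where each gene had independent noise of equal SD in all 4 libraries. In the data the gap was wider between hairpins than between scramble libraries, so that run cannot vouch for the calls. Alternatives were another pseudocount, other filters and scalings, no mean trend, leaving out each library and, added after the data were seen, averaging the scramble libraries.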

Additional observations from a re-analysis of the deposited data

Results flagged for a closer look

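For 10 genes among the members and tested list genes the hairpins lay on opposite sides of both scramble libraries and at least 0.4 apart on the log2(FPKM + 1) scale. With 1 library per hairpin the difference was not tested. Among the members this was CBX5, with hairpin 7 minus hairpin 1 at 0.42. The widest was CDK2AP1, a NuRD-associated gene, at 1.74: it stood at 164.42 and 173.08 FPKM in scramble, 51.65 with hairpin 1 and 174.59 with hairpin 7. H19, an imprinted noncoding RNA, followed at 1.27, with 170.34 and 175.85 FPKM in scramble, 140.78 with hairpin 1 and 339.82 with hairpin 7. POGZ, a zinc finger partner of HP1, was at 0.80, the PRC2 core gene SUZ12 at 0.54 and SENP7, a SUMO protease that binds HP1, at 0.48. The values were negative for the histone chaperone gene ASF1A at -0.70, the demethylase gene TET3 at -0.56, MAGEA4 at -0.51 and the deacetylase gene HDAC1 at -0.43.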

How the results depend on the processing

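Under 11 alternatives for each of 10 members, 98 of 110 log2 changes kept their sign and their side of the threshold, 11 kept the sign and passed, all with 1 hairpin library left out, and 1 changed sign: CBX5 was at 0.0467 without NIPBL knockdown 1 (hairpin 1) and at -0.3777 without NIPBL knockdown 2 (hairpin 7). Members called ranged from 0 to 6 with a library left out, and were 0 under every other alternative. With a library left out, calls over all genes ranged from 0 to 4532, on the pathway lists from 0 to 36 and among ZNF-named genes from 0 to 87. With no filter on low values 1 gene was called in all, 0 on the pathway lists and 0 among ZNF-named genes, where 25230 genes were tested. With the scramble libraries averaged, limma called 0 genes in all, 0 pathway genes and 0 ZNF-named genes. TPM scaling left 14 ZNF-named genes called and 229 in all. Protein-coding genes alone gave 464 calls. The cause of these shifts was not tested. Between scalings the median of all genes tested moved from -0.02 to 0.03. Knockdown minus scramble shares in the HP1 family, in percentage points, were 1.40 for CBX1 (-0.174 without hairpin 1, 2.973 without hairpin 7) and 0.22 for CBX5 (1.245 without hairpin 1, -0.804 without hairpin 7). No paired analysis was possible because the labels hold hairpin names and a suffix, and no numbers that pair libraries across groups. Depth is unknown, so no counting error is given.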
